A study of Mus musculus with 8 samples.

Results

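Regulatory T cells (Treg) of the small intestine were compared with Treg of the spleen on 4 of the 8 arrays of the series, with each gut array set against the spleen array of the same genotype label. A gene was described when its normalised log2 intensity differed by at least 1, a 2-fold difference, in the same direction in both pairs, and when it was detected on both arrays of the brighter tissue. Of 7916 genes measured, 612 met this rule. They comprised 374 genes that were higher and 238 genes that were lower in gut Treg.

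The gut Treg arrays carried RNA of 1 pool of cells from K14Aβb, FOXP3GFP mice and of 1 pool from control MHCII+/-, FOXP3GFP mice. The spleen Treg arrays carried the matching pools from the same 2 genotypes. All mice were C57B6 animals of both sexes, 7 to 14 weeks old, and all carried the FOXP3GFP reporter, which marks cells that express the transcription factor Foxp3. Control mice carry 1 functional MHC class II allele, whereas in K14 mice expression of MHC class II is restricted to the thymus and the line's name refers to the K14 promoter, which drives the Aβb transgene. Live TCRb+ CD4+ CD8- B220- cells were sorted as GFP+ Treg, and the GFP- fraction gave the conventional T cells (Tcon) of the other 4 arrays, 1 for each tissue and genotype. Each pool held cells of several mice, so that every tissue and genotype is represented by 1 array and no pool was repeated. The cells of each tissue were also prepared separately, and an effect of the tissue cannot be told apart from an effect of its cell preparation.

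Treg are CD4 T cells that restrain immune responses, and their identity depends on Foxp3. In the spleen many of them recirculate through blood and lymph in a resting state, guided by receptors for lymphoid chemokines and lipids. In the intestine Treg are mostly activated. They carry retention molecules such as the integrin chain CD103 and the lectin CD69, and they release interleukin 10, which limits inflammation towards food and microbes.

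The intensities had medians of 211.4 to 250.2 units on the 4 Treg arrays, and 9017 to 9414 of 25697 probes were detected on each. The lowest detected signal lay at a log2 value of 6.67 to 6.81, and values below it are background readings. Intensities above 60000 units are near the top of the scale and were taken as lower bounds. Across genes, the K14 and control gut Treg arrays correlated at 0.952, the 2 spleen Treg arrays at 0.949, and gut with spleen at 0.912 in the K14 pair and 0.937 in the control pair. Cd3d, a chain of the T cell receptor complex, read 15.19 and 15.11 in K14 and control gut Treg, against 15.60 and 15.81 in K14 and control spleen Treg. The Foxp3 probe stayed close to background everywhere, at 6.78 and 6.76 in K14 and control gut Treg and 6.92 and 6.95 in the spleen. It read no higher in Treg than in the GFP- Tcon, so it does not check the sort. Il2ra, which makes the interleukin 2 receptor one of high affinity, did separate the sorted fractions, with 7.90 to 9.27 on the 4 Treg arrays and 5.52 to 6.21, all below background, on the 4 Tcon arrays. H2-Ab1, the MHC class II chain that the K14 line lacks in the periphery, did not bear out the genotype labels. In spleen Treg it was higher on the array labelled K14. It read 10.94 on the gut Treg array labelled K14 against 10.99 on the control one, and 13.39 against 11.02 in spleen Treg, so the pairs are those of the labels.

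With the genotype pair as a block, no gene passed limma's test for gut minus spleen Treg after Benjamini-Hochberg adjustment over all genes (0 of 7916, or 0% in each direction). The lowest adjusted p was 0.085, and 1224 genes had an unadjusted p under 0.05, of which 640 were higher and 584 lower in gut Treg. This fit has 2 residual degrees of freedom. Without the genotype block it has 4, and 88 genes then passed: 67 higher (0.846% of all genes) and 21 lower (0.265%) in gut Treg. All 88 were among the 612. The fit without the block takes the K14 and control arrays of a group as replicates, and with the block none of the 88 passed. The 374 higher genes are 4.72% and the 238 lower genes 3.01% of the genes measured, and these shares are the background for the list counts below. Below, each gene's difference is therefore given as a value, and a gene that passed without the block is named as such with that adjusted p. In bulk samples such as these, fewer cells of a type and less RNA per cell cannot be told apart.

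The pairs differed in part. A difference of 2-fold or more, with detection on the brighter array of the pair, was seen for 1888 genes in the K14 pair and 1374 genes in the control pair. Without regard to detection, 108 genes differed by 2-fold or more in opposite directions in the 2 pairs. In 4987 genes (63%) both pairs had the same sign, with 28.6% of all genes higher and 34.4% lower in gut Treg in both, and across all genes the differences of the 2 pairs correlated at 0.431. In the plot of the 2 pairs the genes at the upper right corner are led by Hspa1a, Il10, Fosb and Reg3b, and those at the lower left by S100a9, Camp and B3gnt8. For 116 of the 374 higher genes neither spleen array detected the gene, for 54 of them 1 did and for 204 both did. Among the 238 lower genes, neither gut array detected 60, 1 detected 45 and both detected 133. Where the dimmer tissue was below background on both arrays, a lower bound of the fold is given, which compares the brighter mean with the lowest detected signal, or with the dim reading itself where that was higher.

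**Figure D1:**
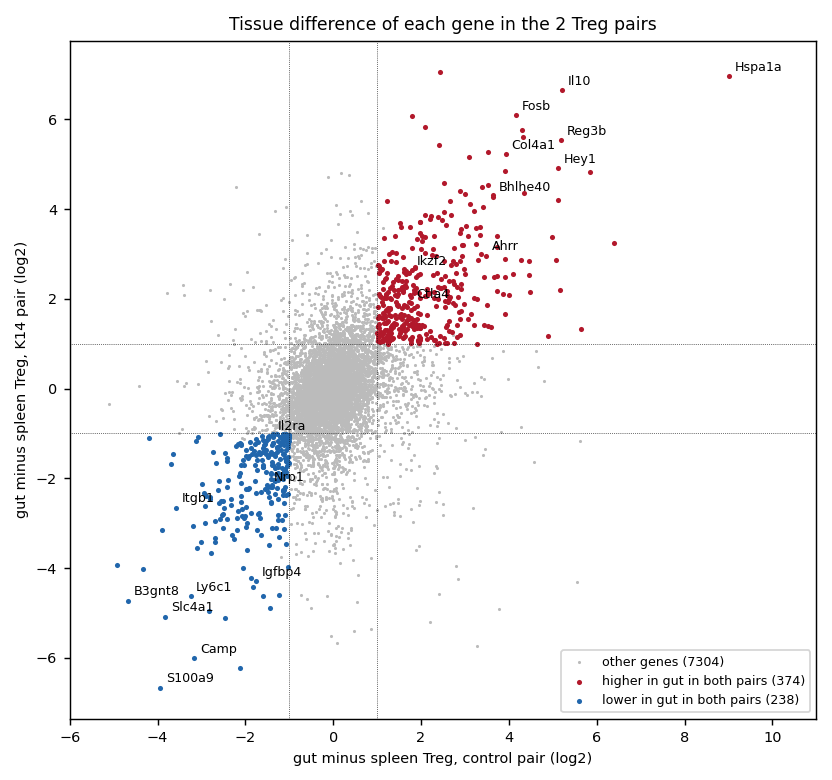
Difference between gut and spleen Treg for each of 7916 genes, on the log2 scale, with the control pair on the horizontal axis and the K14 pair on the vertical axis. Red points are the 374 genes higher and blue points the 238 genes lower in gut Treg by 2-fold or more (dotted lines) in both pairs, and grey points are all other genes. Hspa1a and Il10 stand furthest to the upper right, and S100a9 furthest to the lower left.

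The largest difference in both pairs together was that of Hspa1a, the stress-inducible heat shock protein 70. It read 13.14 in K14 and 14.46 in control gut Treg, against 6.18 and 5.45 in K14 and control spleen Treg, both below background. Both gut arrays were thus bright and both spleen arrays empty, a difference of at least 130.4-fold (limma adjusted p = 0.0972, and 0.0169 without the genotype block). A near-identical copy of the gene, Hspa1b, could share the probe, so the reading may be that of both. Of the 10 measured heat shock genes no other reached 2-fold in both pairs, although 7 of the 10 were higher in both, against 28.6% of all genes, and the list's median was 0.70, against -0.06 over all genes. Bag3, a cochaperone of heat shock protein 70, differed by 1.67 in the K14 pair and 0.81 in the control pair. Hspd1, the mitochondrial chaperonin, differed by 0.73 and 0.72 in the same pairs.

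Genes of the early response encode the AP-1 transcription factors and other proteins made soon after stimulation. Of 26 measured members 17 were higher in gut Treg past 2-fold in both pairs and 0 were lower, 23 had the same positive sign in both, and 6 passed without the genotype block. The list's median difference was 2.04, or 2.02 with each reading below the lowest detected signal raised to it, against -0.06 over all genes. Fosb, an AP-1 subunit, read 12.01 in K14 and 10.11 in control gut Treg, against 5.91 and 5.94 in spleen Treg, where it was below background. That is a difference of at least 19.5-fold (limma adjusted p = 0.0972, and 0.0436 without the block). Its relative Fos, another AP-1 subunit, was present in both tissues, at 14.33 and 13.44 in K14 and control gut Treg, against 11.16 and 9.71 in spleen Treg. Junb, a partner of both, read 15.16 and 14.84 in K14 and control gut Treg, against 12.15 and 11.49 in spleen Treg (limma adjusted p = 0.0429 without the block). In each of these the gut arrays lay above both spleen arrays. Atf3, a stress-induced factor of the same family, read 9.92 and 8.85 in K14 and control gut Treg and was below background in spleen Treg, a difference of at least 6.13-fold (limma adjusted p = 0.0216 without the block).

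The 2 members that were lower in both pairs belong to the Egr family of T cell receptor-induced factors. Egr2 differed by -0.18 in the K14 pair and -0.13 in the control pair and Egr3 by -0.28 and -0.42, small values on the spleen side. Egr3 stayed close to background, at 6.89 and 6.76 in K14 and control gut Treg and 7.17 and 7.18 in spleen Treg. Its direction is therefore uncertain. Dusp1, a phosphatase that switches off MAP kinases, reached the upper end of the scale in the gut. It read 16.02 and 16.03 in K14 and control gut Treg, against 13.85 and 13.44 in spleen Treg, so that its difference is a lower bound. Zfp36, a protein that promotes the decay of cytokine mRNAs, was near the top as well and differed by 1.10 in the K14 pair and 1.16 in the control pair.

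Proteins that restrain NF-kB signalling were higher too, in a list put together after the values were seen. Of 15 measured members 6 were higher past 2-fold in both pairs and 0 were lower, 4 passed without the block, and the median was 1.01. Tnfaip3, the ubiquitin-editing enzyme A20, read 14.50 and 13.66 in K14 and control gut Treg, against 10.47 and 10.25 in spleen Treg. Its difference was 3.72 ± 0.29 (limma SE, limma adjusted p = 0.085, and 0.0169 without the block). Nfkbiz, an atypical nuclear inhibitor of the same family, read 15.38 and 15.06 in K14 and control gut Treg, against 12.53 and 12.35 in spleen Treg (limma adjusted p = 0.0169 without the block).

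Because these genes were high together, the 250 bases before their start sites were read from the RefSeq promoter table (GRCm38.p6), and 3 promoters that hold a known response motif are shown. Capitals mark matches, found on either strand, of the paired heat shock unit GAANNTTC, the AP-1 site TGANTCA, the cyclic AMP response element TGACGTCA and the E-box CACGTG. None of these motifs contains another, and the set was changed once after a first search. All 3 genes lie on the minus strand, and each sequence runs along it 5′ to 3′ up to the base before the start site. The promoter of Hspa1a lies at chr17:34972157-34972406, that of Dusp1 at chr17:26508473-26508722, and that of the upstream start site of Tnfaip3, 1 of 2 in the table, at chr10:19015411-19015660.
Hspa1a: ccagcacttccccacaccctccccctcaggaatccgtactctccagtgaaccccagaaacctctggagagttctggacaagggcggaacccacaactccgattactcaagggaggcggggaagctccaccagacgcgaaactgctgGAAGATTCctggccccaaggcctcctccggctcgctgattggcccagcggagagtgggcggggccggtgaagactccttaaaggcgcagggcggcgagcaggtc
Dusp1: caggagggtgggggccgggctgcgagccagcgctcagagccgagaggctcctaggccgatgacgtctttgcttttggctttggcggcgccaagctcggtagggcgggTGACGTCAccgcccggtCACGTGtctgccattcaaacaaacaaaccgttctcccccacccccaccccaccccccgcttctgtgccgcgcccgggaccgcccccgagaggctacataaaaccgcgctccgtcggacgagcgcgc
Tnfaip3: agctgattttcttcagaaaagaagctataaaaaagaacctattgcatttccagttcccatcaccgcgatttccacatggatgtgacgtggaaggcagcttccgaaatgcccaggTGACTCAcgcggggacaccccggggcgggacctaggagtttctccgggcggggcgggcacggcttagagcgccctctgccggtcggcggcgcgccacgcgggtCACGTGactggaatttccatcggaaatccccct
In Hspa1a the heat shock unit begins 104 bases upstream of the start. Dusp1 holds a cyclic AMP response element at 143 and an E-box at 126 bases, and Tnfaip3 an AP-1 site at 136 and an E-box at 33 bases. The 250 bases before the other start site of Tnfaip3 held none of these motifs. These letters are common: GAANNTTC occurred in 7.73% of 27025 promoters of the table, TGANTCA in 7.82%, TGACGTCA in 1.77% and CACGTG in 6.86%. Of the 374 higher genes 284 had a promoter in the table, and of these 6.69%, 7.39%, 3.17% and 10.2% held the motifs in the same order. Among the 199 lower genes with a promoter the shares were 4.02%, 4.02%, 1.51% and 10.1%. Over the 6503 measured genes with a promoter they were 6.26%, 5.92%, 2.80% and 10%, so the shares of the higher genes lay close to those of all measured genes. The motifs were chosen with the results known, and a match of letters does not show that a factor binds.

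Il10, the anti-inflammatory cytokine of intestinal Treg, had the second largest difference. It read 15.97 and 16.10 in K14 and control gut Treg, near the top of the scale, against 9.31 and 10.89 in K14 and control spleen Treg. The difference was 5.93 ± 0.70 (limma SE, limma adjusted p = 0.105, and 0.0269 without the block), and the gut arrays being near saturation makes it a lower bound. Of the genes of activated effector Treg, Il10 included, 9 of 16 measured members were higher past 2-fold in both pairs and 0 lower. Their median difference was 1.71 (1.24 with background readings raised to the lowest detected signal), and 3 of them passed without the block. Fgl2, a secreted suppressor protein, read 10.12 and 8.90 in K14 and control gut Treg, against 7.29 and 6.37 in spleen Treg, with the control spleen array below background. Icos, a costimulatory receptor of effector Treg, read 11.06 and 11.18 in K14 and control gut Treg, against 9.27 and 9.34 in spleen Treg (limma adjusted p = 0.0304 without the block). For both genes the gut arrays lay above both spleen arrays.

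Lag3, Havcr2 and Klrg1, inhibitory receptors of the list, were higher in gut in both pairs by more than 2-fold. Lag3, which binds MHC class II, read 10.50 and 13.17 in K14 and control gut Treg, against 8.57 and 10.55 in spleen Treg. The K14 gut array thus lay just below the control spleen array, and the difference shows within each pair only. Havcr2, the receptor TIM-3, read 11.15 and 10.63 in K14 and control gut Treg, against 8.88 and 8.25 in spleen Treg. Klrg1, a receptor of terminally differentiated cells, read 14.67 and 13.24 in K14 and control gut Treg, against 12.80 and 11.76 in spleen Treg. Irf4, a transcription factor that effector Treg need, differed by 1.68 in the K14 pair and 1.93 in the control pair. Prdm1, which encodes Blimp-1, differed by 0.67 and 2.83 in the same pairs, and so missed the limit in the K14 pair.

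Genes at the core of Treg identity were divided between the tissues. Of 17 measured members 4 were higher and 2 lower in gut Treg past 2-fold in both pairs, and the median difference was 0.47. Ctla4, the inhibitory receptor that removes costimulatory ligands, read 15.86 and 16.01 in K14 and control gut Treg, near the top of the scale, against 13.96 and 14.25 in spleen Treg. Ikzf2, the transcription factor Helios, read 9.64 and 9.54 in K14 and control gut Treg, against 7.01 and 7.75 in spleen Treg. Its difference was 2.21 ± 0.31 (limma SE, limma adjusted p = 0.123, and 0.0318 without the block). On the other side stood Nrp1, the coreceptor neuropilin 1, with 12.55 and 12.73 in K14 and control gut Treg, against 14.74 and 14.21 in spleen Treg. Helios and neuropilin 1 are both used as marks of thymus-derived Treg in mice, and here they differed in opposite directions. The lower Nrp1 reading in gut was shared by Tcon, where it differed by -1.23 in the K14 pair and -3.06 in the control pair. Il2ra was lower in gut Treg as well, at 8.05 and 7.90 in K14 and control gut Treg, against 9.10 and 9.27 in spleen Treg. Gpr83, a peptide receptor of Treg, differed by -3.73 in the K14 pair and by -0.57 in the control pair.

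Among genes of tissue Treg and of repair, 5 of 11 measured were higher and 1 was lower past 2-fold in both pairs. Without the block 3 passed, and the median was 0.86. Atf3, also on the early response list, is among the higher genes here and among those that passed. Bhlhe40, a transcriptional repressor of activated T cells, read 12.50 and 11.97 in K14 and control gut Treg, against 8.23 and 8.32 in spleen Treg. This difference of 3.96 ± 0.27 (limma SE) had a limma adjusted p of 0.085, and of 0.00963 without the block. Nfil3, a leucine zipper factor, read 13.67 and 14.09 in K14 and control gut Treg, against 10.27 and 10.37 in spleen Treg. The triglyceride-forming enzyme Dgat1 read 12.48 and 12.72 in K14 and control gut Treg, against 9.62 and 8.44 in spleen Treg (limma adjusted p = 0.0269 without the block). These 3 genes were high on both gut arrays by a wide margin. Gata3, a factor of type 2 helper cells that Treg in barrier tissues also use, differed by 1.01 in the K14 pair and 0.70 in the control pair. The exception was Pparg, a lipid-sensing receptor of visceral fat Treg, which was below background in gut Treg and read 7.44 and 7.87 in K14 and control spleen Treg, a difference of at least 1.93-fold.

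Among molecules of gut homing and retention, 3 of 11 measured were higher and 1 was lower past 2-fold in both pairs, with a median of 0.87 (0.38 with background readings raised to the lowest detected signal). Itgae, the CD103 chain that binds E-cadherin of the epithelium, read 16.05 and 15.68 in K14 and control gut Treg, against 14.83 and 13.56 in spleen Treg, with the K14 gut array near the top of the scale. Cd69, which holds cells in tissue by blocking the exit receptor S1P1, read 16.08 and 16.04 in K14 and control gut Treg, near the top as well, against 14.44 and 14.43 in spleen Treg. Both genes were already bright in spleen Treg, and their differences were of modest size. With gut readings near the top, those of Cd69 in both pairs and of Itgae in the K14 pair are lower bounds. Itgb1, the beta 1 integrin chain, was lower, at 8.67 and 7.75 in K14 and control gut Treg, against 11.33 and 11.33 in spleen Treg (limma adjusted p = 0.0269 without the block). The receptors Ccr9 and Gpr15, which direct T cells to small and large intestine, were below the detection filter or without a named probe and are not analysed here.

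Genes of resting and recirculating T cells lay on the spleen side, with 5 of 19 measured members lower and 0 higher in gut Treg past 2-fold in both pairs and a median of -0.76. Ly6c1, a surface antigen of resting Treg, read 8.31 and 8.12 in K14 and control gut Treg, against 12.94 and 11.37 in spleen Treg. Cnr2, a cannabinoid receptor, read 8.83 and 9.47 in K14 and control gut Treg, against 11.72 and 12.05 in spleen Treg (limma adjusted p = 0.0412 without the block). Igfbp4, which binds insulin-like growth factors, read 8.22 and 10.28 in K14 and control gut Treg, against 12.52 and 12.04 in spleen Treg. Its difference was larger in the K14 pair than in the control pair. Klf3, a repressor of the Krüppel-like family, differed by -1.58 in the K14 pair and -1.74 in the control pair. The genes most tied to recirculation did not share this pattern: Klf2, which drives the exit receptor, differed by -0.16 and 0.03 in the K14 and control pairs, and Ccr7, the lymph node homing receptor, by -0.93 and 0.07. S1pr1, the exit receptor itself, was below the detection filter and is not analysed here.

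Of 24 measured cytokine and chemokine genes, Il10 included, 6 were higher and 0 lower past 2-fold in both pairs, and the median was 0.55 in the K14 pair and 0.04 in the control pair. Ifng, the type 1 helper cytokine, read 10.80 and 11.83 in K14 and control gut Treg, against 8.31 and 8.16 in spleen Treg (limma adjusted p = 0.0318 without the block). Ccl4, an inflammatory chemokine, read 12.98 and 13.52 in K14 and control gut Treg, against 10.04 and 10.59 in spleen Treg (limma adjusted p = 0.0349 without the block). Il4, the type 2 helper cytokine, read 9.16 and 9.10 in K14 and control gut Treg, against 5.70 and 7.14 in spleen Treg, where 1 of 2 arrays detected it. Cxcl10, a chemokine induced by interferon, read 10.30 and 9.01 in K14 and control gut Treg and was below background in spleen Treg, a difference of at least 7.37-fold. Ifng, Il4 and Ccl4 read higher in gut Tcon than in gut Treg of the same genotype label, and Il10 and Cxcl10 lower. In K14 and control gut Tcon Ifng read 15.255 and 14.58, against 10.33 and 10.36 in spleen Tcon. Il4 read 13.85 and 13.09 in K14 and control gut Tcon, against 9.85 and 9.59 in spleen Tcon. The part of Tcon RNA in the gut Treg readings was not tested.

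Regulators of G protein signalling were on the gut side, with 3 of 7 measured higher past 2-fold in both pairs, 0 lower and a median of 0.88, which was 1.22 in the K14 pair, 0.54 in the control pair and 0.15 with the mean over a gene's probes. Rgs1, which dampens chemokine receptor signals, read 15.73 and 15.77 in K14 and control gut Treg, against 13.19 and 13.51 in spleen Treg. Its difference was 2.40 ± 0.25 (limma SE, limma adjusted p = 0.0966, and 0.0169 without the block). Rgs16 differed by 2.77 in the K14 pair and 2.79 in the control pair, and Rgs2 was at least 2.68-fold higher in gut Treg (limma adjusted p = 0.0318 without the block for Rgs2). Ahrr, the repressor that the aryl hydrocarbon receptor induces against itself, read 10.05 and 10.67 in K14 and control gut Treg, against 7.08 and 7.19 in spleen Treg (limma adjusted p = 0.0269 without the block). Of the 8 measured genes of nuclear receptor, vitamin A and aryl hydrocarbon receptor signalling, 2 were higher and 2 lower past 2-fold in both pairs. Rxra, a common partner of nuclear receptors, was at least 3.41-fold higher, and Rarg, a retinoic acid receptor, differed by -2.14 in the K14 pair and -1.40 in the control pair. Among 13 genes of TGF-beta signalling 3 were higher past 2-fold in both pairs and 0 lower, with medians of 0.09 in the K14 pair and 0.73 in the control pair. These were the transcriptional corepressors Tgif1 and Skil, at 1.75 and 2.65 in the K14 pair and 1.78 and 1.09 in the control pair, and Furin, the protease that activates TGF-beta, at 1.39 and 1.02. Of 10 cytotoxic genes 2 were higher, Klrg1 and the death ligand Fasl, the second at 2.63 and 1.65, and of 9 TNF receptor genes none passed the limit.

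**Figure D2:**
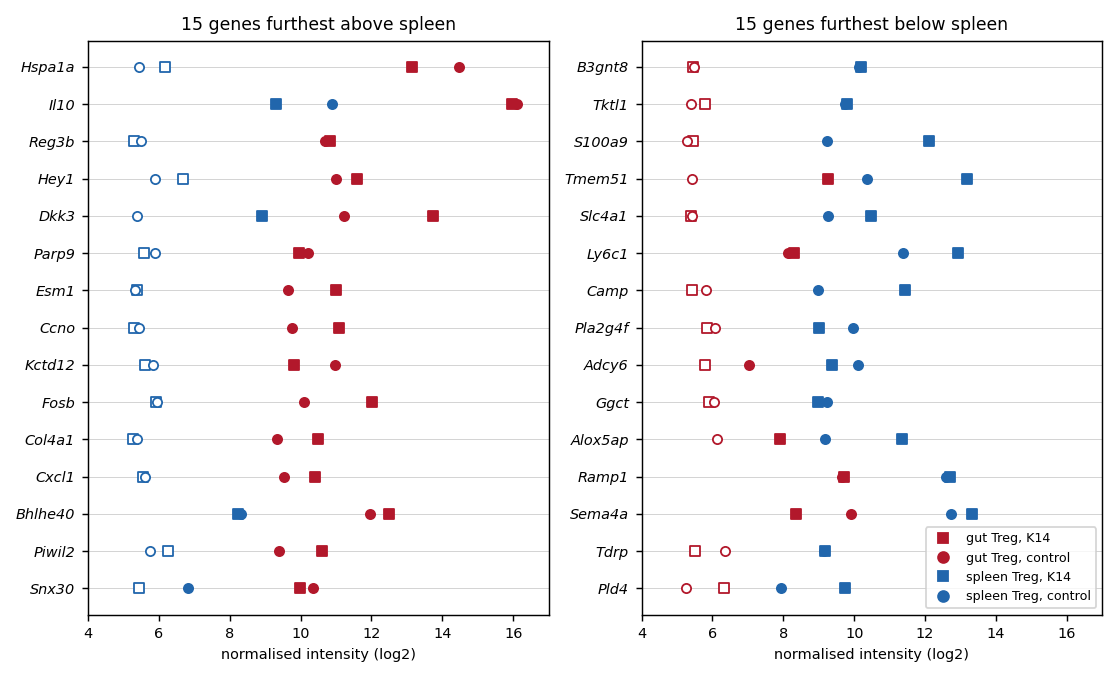
Normalised intensity on the log2 scale of the 15 genes furthest above spleen (left) and the 15 furthest below spleen (right) in gut Treg, ranked by the smaller of the 2 pair differences. Red marks are gut Treg and blue marks spleen Treg, squares are K14 and circles control arrays, and open marks are readings below the detection limit. For Hspa1a, Reg3b, Hey1 and Esm1 both spleen arrays are at background, and for S100a9, Camp and Slc4a1 both gut arrays are.

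Several of the 15 genes furthest above spleen are known from cells other than T cells. Reg3b, an antibacterial lectin of gut epithelium, read 10.84 and 10.69 in K14 and control gut Treg and was below background in spleen Treg, a difference of at least 15.9-fold (limma adjusted p = 0.085, and 0.0169 without the block). Krt8, a keratin of simple epithelia, read 9.44 and 10.63 in K14 and control gut Treg, against 7.34 and 6.76 in spleen Treg. Of 8 measured epithelial markers these 2 were past 2-fold in both pairs, and the list's median was 1.24 in the K14 pair and 0.79 in the control pair. Of the 17 epithelial markers with a probe, 7 and 5 were detected in K14 and control gut Treg, against 4 on each spleen Treg array. The summed intensities of these 17 were 9626 and 11921 units in K14 and control gut Treg, against 4107 and 4563 units in spleen Treg. Such sums, here and below, are without background correction, so that undetected probes add to them. The defining markers Vil1, Fabp1, Fabp2, Krt19 and Krt20 were below the filter, and the part of epithelial RNA in these readings was not tested.

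Esm1, a proteoglycan secreted by blood vessel cells, read 10.99 and 9.65 in K14 and control gut Treg and was below background in spleen Treg, a difference of at least 11.7-fold (limma adjusted p = 0.0308 without the block). Col4a1, a collagen of basement membranes, read 10.50 and 9.32 in K14 and control gut Treg and was likewise below background in spleen Treg, a difference of at least 8.83-fold (limma adjusted p = 0.0169 without the block). Hey1, a repressor that Notch induces in vessels and other tissues, read 11.60 and 11.01 in K14 and control gut Treg and was at least 23.1-fold higher there (limma adjusted p = 0.00963 without the block). Endothelial and basement membrane lists were then drawn up, after these values had been seen. Of 16 measured endothelial genes 8 were higher past 2-fold in both pairs and 0 lower, with a median of 2.29 (1.53 with background readings raised to the lowest detected signal). The endothelial median was 3.47 in the K14 pair and 1.53 in the control pair. Of 8 measured basement membrane genes 5 were higher and 0 lower, with a median of 1.90 (1.27 raised likewise), which was 2.34 in the K14 pair and 1.18 in the control pair.

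The endothelial signal was stronger on the K14 gut Treg array than on the control one. Of the 22 endothelial genes with a probe, 17 were detected in K14 and 12 in control gut Treg, against 4 on each spleen Treg array. Their summed intensities were 23181 and 11286 units in K14 and control gut Treg, against 6094 and 8325 units in K14 and control spleen Treg. Vwf, the von Willebrand factor, read 9.85 and 7.85 in K14 and control gut Treg and was below background in spleen Treg. Stab1, a scavenger receptor of sinus endothelium and macrophages, was at least 4.53-fold higher in gut Treg (limma adjusted p = 0.0333 without the block). Robo4 and Esam, surface proteins of endothelium, read 10.21 and 10.60 on the K14 gut Treg array and were below background on the other Treg arrays. The defining markers Cdh5, Tie1 and Sox17 were below the filter, and Pecam1, which T cells also express, differed by -1.28 and -0.90 in the K14 and control pairs. The part of endothelial RNA in these differences was not tested.

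The other leading genes have no common role. Dkk3, a secreted protein of the dickkopf family, read 13.73 and 11.23 in K14 and control gut Treg, against 8.90 and 5.38 in spleen Treg, and so differed between the genotype labels in both tissues. Parp9, an interferon-induced member of the ADP-ribosyltransferase family, read 9.94 and 10.22 in K14 and control gut Treg and was at least 9.92-fold higher there. The neutrophil-attracting chemokine Cxcl1 read 10.40 and 9.53 in K14 and control gut Treg and was at least 9.14-fold higher (limma adjusted p = 0.00963 without the block). Bounds of the remaining genes that spleen Treg did not show were 12.5-fold for Ccno, a cyclin of multiciliated cells, 12.3-fold for Kctd12, an auxiliary subunit of GABA-B receptors, and 9.30-fold for Piwil2, a PIWI protein of the germ line. Snx30, a sorting nexin, was detected on 1 spleen Treg array and differed by 4.54 in the K14 pair and 3.53 in the control pair. All of these but Dkk3 passed without the block, with limma adjusted p values of 0.0106 for Parp9, 0.0169 for Ccno and Kctd12, 0.0308 for Piwil2 and 0.0349 for Snx30.

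The genes furthest below spleen included several of neutrophils and red blood cells. S100a9, a subunit of the neutrophil protein calprotectin, was below background in gut Treg at 5.45 and 5.28 on the K14 and control arrays, against 12.11 and 9.22 in K14 and control spleen Treg, a difference of at least 15.6-fold. Camp, the antimicrobial peptide cathelicidin, was below background in gut Treg too and read 11.44 and 8.98 in K14 and control spleen Treg, a difference of at least 11.3-fold. Both genes were brighter on the K14 than on the control spleen array. Of 10 measured neutrophil granule genes, in a list chosen after the values were seen, 3 were lower in gut Treg past 2-fold in both pairs and 0 higher, with medians of -3.49 in the K14 pair and -0.54 in the control pair. Of the 14 with a probe, 2 were detected on each gut Treg array, against 9 and 4 on the K14 and control spleen Treg arrays. Their summed intensities were 4361 and 3981 units in K14 and control gut Treg, against 17149 and 5815 units in K14 and control spleen Treg. Slc4a1, the anion exchanger of red blood cells, was below background in gut Treg and read 10.48 and 9.25 in K14 and control spleen Treg, a difference of at least 8.96-fold (limma adjusted p = 0.0436 without the block).

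Markers of B cells were on the spleen side as well, and those of myeloid cells in the K14 pair. All 5 measured B cell markers were lower in gut Treg in both pairs, 2 of them past 2-fold, with a median of -1.19 (-0.85 with background readings raised to the lowest detected signal). Of the 9 with a probe 4 were detected on each gut Treg array, against 6 and 5 on the K14 and control spleen Treg arrays. Their summed intensities were 10580 and 7349 units in K14 and control gut Treg, against 20660 and 11609 units in spleen Treg. Fcmr, the receptor for immunoglobulin M, read 9.37 and 9.41 in K14 and control gut Treg, against 12.00 and 11.40 in spleen Treg. Of 15 myeloid and dendritic cell markers with a probe, 6 and 4 were detected in K14 and control gut Treg, against 11 and 4 in K14 and control spleen Treg. Their summed intensities were 21068 and 15602 units in K14 and control gut Treg, against 47631 and 17458 units in spleen Treg. Of the 12 that were measured 6 were lower, 1 of them past 2-fold, and 3 were higher in gut Treg in both pairs, and the median was -2.39 in the K14 pair and -0.07 in the control pair. C1qa, a complement component of macrophages, was among the higher ones, at 0.48 and 0.78 in the K14 and control pairs. Of the MHC class II genes, 9 were measured and none passed 2-fold in both pairs, with medians of -1.21 in the K14 pair and -0.13 in the control pair. The part of these other cells in the differences was not tested.

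Receptors and enzymes made up most of the remaining genes furthest below spleen. Ramp1, a subunit of the receptor for the neuropeptide CGRP, read 9.71 and 9.66 in K14 and control gut Treg, against 12.71 and 12.58 in spleen Treg. Its difference was -2.96 ± 0.22 (limma SE, limma adjusted p = 0.085, and 0.00963 without the block). Sema4a, a semaphorin that binds neuropilin 1, read 8.37 and 9.92 in K14 and control gut Treg, against 13.33 and 12.74 in spleen Treg. Adcy6, an adenylyl cyclase, read 5.80 and 7.02 in K14 and control gut Treg, against 9.36 and 10.12 in spleen Treg. Without the block Sema4a and Adcy6 passed too, with limma adjusted p values of 0.0318 and 0.0386. Tktl1, a relative of the pentose phosphate enzyme transketolase, was below background in gut Treg and at least 8.38-fold lower there (limma adjusted p = 0.00963 without the block). B3gnt8, a glycosyltransferase, was at least 11.02-fold lower, the phospholipase Pla2g4f at least 6.88-fold (limma adjusted p = 0.0169 without the block), Tdrp at least 5.47-fold, and Pld4, a nuclease of endosomes, at least 4.40-fold. Alox5ap, which activates leukotriene synthesis, differed by -3.43 in the K14 pair and -3.02 in the control pair. Tmem51, a membrane protein, differed by -3.93 and -4.93 in the same pairs and lay far higher on both K14 arrays than on the controls. For Ggct, an enzyme of glutathione turnover, 2 of 3 probes were lower in gut Treg in both pairs, the brightest by -3.06 in the K14 pair and -3.20 in the control pair, while the other one differed by 0.33 in the K14 pair and -0.16 in the control pair.

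The lists of general cell functions had medians of less than 2-fold in size, while some single genes differed by more. Of 55 measured ribosomal protein genes 41 were lower and 1 was higher in gut Treg in both pairs, against 34.4% and 28.6% of all genes. Of the lower ones 3 were past 2-fold, and the median was -0.27 in the K14 pair and -0.57 in the control pair. Rpl35a, a protein of the large subunit, read 12.41 and 12.29 in K14 and control gut Treg, against 13.66 and 13.69 in spleen Treg (limma adjusted p = 0.0388 without the block). Of 56 oxidative phosphorylation genes 36 were lower and 2 higher in both pairs, against the same 34.4% and 28.6% of all genes. One was past 2-fold, Ndufb10 of complex I at -1.17 and -1.01 in the K14 and control pairs, and the medians of these pairs were -0.23 and -0.46. Of 26 cell cycle genes 16 were lower and 2 higher in both pairs, against 34.4% and 28.6% of all genes, 3 of the lower ones past 2-fold, with a median of -0.60. Bub1b, a mitotic checkpoint kinase, read 9.39 and 6.17 in K14 and control gut Treg, against 10.80 and 8.91 in spleen Treg, and was thus brighter on the K14 array of each tissue. Of 15 glycolysis genes only Hk2, the inducible hexokinase, passed 2-fold in both pairs, at 1.38 and 1.02.

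Genes of the activated cytoskeleton and S100 group were lower in gut Treg in 5 of 20 cases past 2-fold in both pairs and higher in 0, with a median of -0.51. Lgals3, the lectin galectin 3, read 10.36 and 9.48 in K14 and control gut Treg, against 13.14 and 11.18 in spleen Treg. Emp3, a membrane protein of leukocytes, read 10.73 and 10.49 in K14 and control gut Treg, against 12.05 and 12.10 in spleen Treg (limma adjusted p = 0.0349 without the block). The interferon response list had a median of -0.02, and 3 of its 24 measured genes were higher past 2-fold in both pairs. They were Isg15, a ubiquitin-like protein, at 1.74 and 1.26 in the K14 and control pairs (limma adjusted p = 0.0436 without the block), the GTPase Gbp3 at 1.52 and 1.69, and Oas1a, an oligoadenylate synthetase, at least 2.37-fold higher. The plot of the lists shows that the early response and effector Treg genes are spread widely to the right of the median of all genes, while ribosomal and respiratory genes lie close together to its left.

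**Figure D3:**
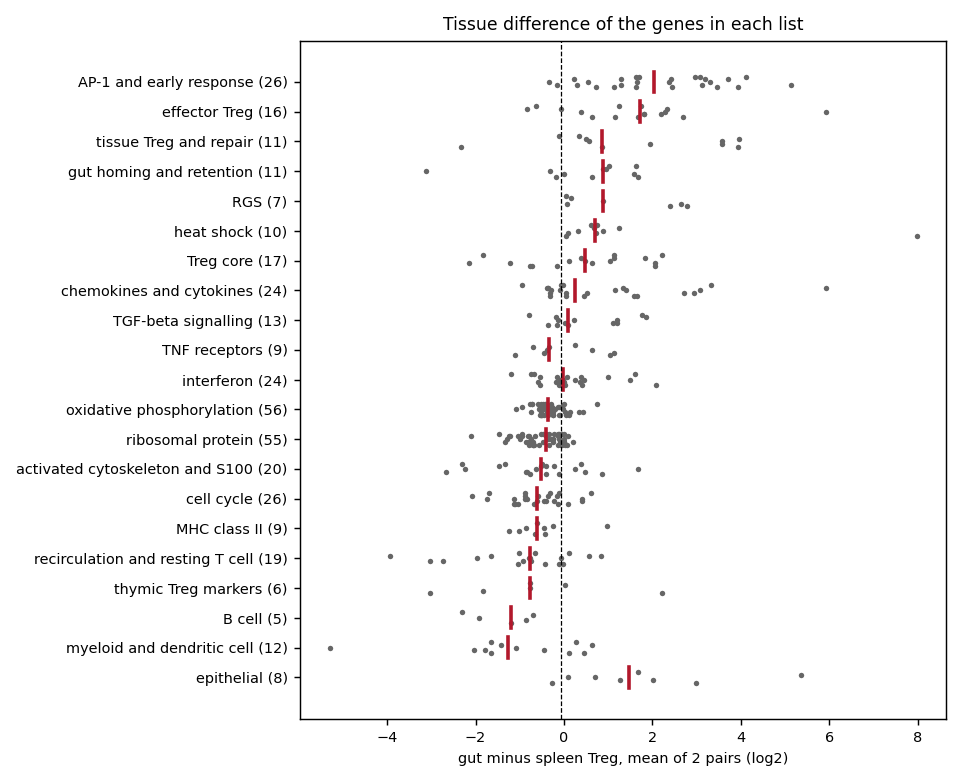
Difference between gut and spleen Treg, mean of 2 pairs on the log2 scale, of each measured gene (grey points) in 21 gene lists, with the number of measured genes in brackets. Red bars are the list medians, which run up to 2.04 for the early response list, and the dashed line is the median of all genes, -0.06.

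To see which differences the sorted Tcon shared, the same comparison was read from the 4 Tcon arrays. Of the 612 genes, 224 also differed by 2-fold or more in the same direction in both Tcon pairs, 160 higher and 64 lower in gut, and 3 in the opposite direction. Over all genes, 5.71% were past this limit higher and 3.49% lower in gut Tcon. The 160 are 42.8% of the 374 and the 64 are 26.9% of the 238. The difference between the tissue effects of Treg and Tcon was tested in the same limma fit, and no gene passed (0 of 7916, or 0%). The lowest adjusted p was 0.284, and 555 genes had an unadjusted p under 0.05. Without the block 0 genes passed as well, with a lowest adjusted p of 0.117 and 488 genes at an unadjusted p under 0.05. None of the genes below is therefore shown to be particular to Treg, and their differences are fitted values that include background readings.

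Of the 26 early response genes 19 were higher past 2-fold in both Tcon pairs and 0 lower, against 5.71% and 3.49% of all genes, and of the 10 heat shock genes 1 was higher and 0 lower. By the same rule, 6 of 11 tissue Treg and repair genes and 7 of 16 effector Treg genes were higher in gut Tcon and 0 lower. Of 17 Treg core genes 7 were higher and 1 lower, and of 24 cytokine and chemokine genes 11 and 0. The tissue Treg median was 2.1 in Tcon, against 0.86 in Treg. Bhlhe40 differed by 4.53 and 4.36 in the K14 and control Tcon pairs. Hspa1a differed by 6.79 in the K14 and 9.42 in the control Tcon pair, Fosb by 4.70 and 4.19, and Tnfaip3 by 4.12 and 3.67. Il10 differed in Tcon by 5.77 and 8.09 in the K14 and control pairs, against 6.65 and 5.21 in Treg. For Ctla4, Itgae and Rgs1, which were bright in spleen Treg, the Treg difference was the smaller one. Ctla4 differed by 1.83 in Treg and by 5.86 and 5.24 in the K14 and control Tcon pairs (Treg minus Tcon -3.72 ± 0.38, SE, limma adjusted p = 0.284). Itgae differed by 1.67 in Treg and by 6.88 and 5.85 in the same Tcon pairs, and Rgs1 by 2.40 in Treg and 5.35 and 4.99 in Tcon. As both gut Treg arrays for Ctla4 and the K14 one for Itgae were near the top, their Treg differences are lower bounds. The gaps between Treg and Tcon for Ctla4 and Itgae may thus be overstated. Rgs1 was near the top on the control gut Tcon array, so that its Tcon difference there is a lower bound.

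For other genes the Treg difference was the larger one. Ikzf2 differed by 2.21 in Treg, against 0.31 and -0.02 in the K14 and control Tcon pairs, where it was below background on all 4 arrays (adjusted p = 0.538). Piwil2 differed by 3.98 in Treg, against 0.10 and 0.21 in Tcon, where it was also below background on all 4 arrays (adjusted p = 0.284). Pla2g4f differed by -3.52 in Treg, against 0.27 and 0.30 in Tcon, where it too was below background on all 4 arrays. Tmem51 differed by -4.43 in Treg, against 0.31 and 0.59 in Tcon (adjusted p = 0.284 for Pla2g4f and Tmem51). Lgals3 differed in opposite directions, by -2.25 in Treg and by 1.05 and 0.93 in the K14 and control Tcon pairs (adjusted p = 0.434). Of the endothelial and basement membrane genes, 5 of 16 and 2 of 8 were higher past 2-fold in both Tcon pairs and 0 lower. Esm1 differed by 7.17 and 5.003 in the K14 and control Tcon pairs, Col4a1 by 2.86 and 3.38, Vwf, below background on all Tcon arrays, by 1.12 and 0.25, and Robo4 by 3.84 and -0.94. Of the 8 measured epithelial markers 4 were higher past 2-fold in both Tcon pairs and 0 lower. Reg3b differed by 4.74 and 6.28 in the K14 and control Tcon pairs. S100a9 was on the spleen side in both cell types, at -5.30 in Treg, against -6.94 and -4.46 in Tcon. One of the Tcon arrays, from control gut, read high for genes of the exocrine pancreas, and without its pair 0 genes still passed either test. On the Treg arrays Cela1, a pancreatic elastase, was the only 1 of 9 measured pancreas genes past 2-fold in both pairs, at 9.59 and 10.78 in K14 and control gut Treg, against 7.35 and 8.36 in spleen Treg. Cela2a, another elastase, read 9.73 on the control gut Treg array and was below background on the other Treg arrays. The part of pancreatic RNA in these readings was not tested.

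**Figure D4:**
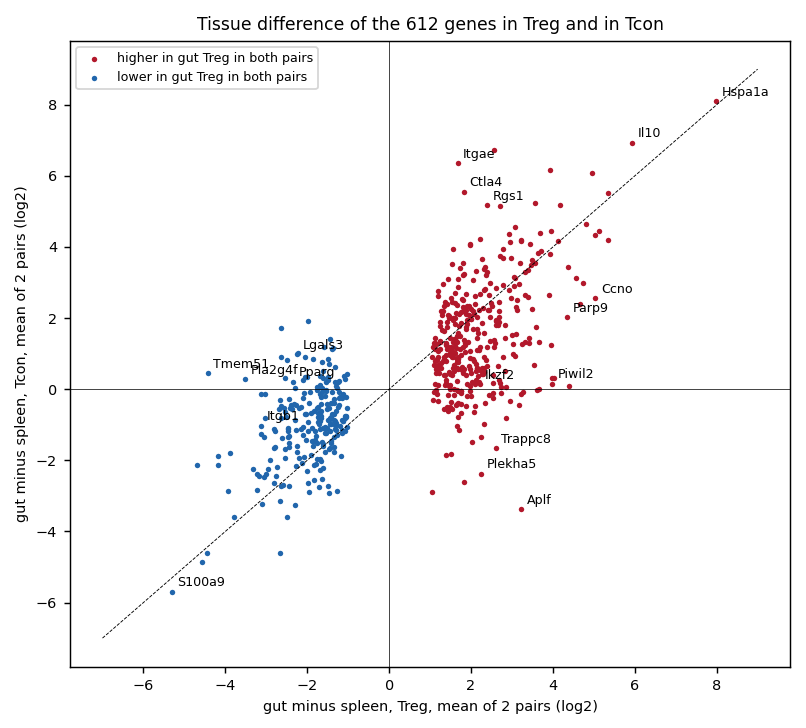
Difference between gut and spleen on the log2 scale of the 612 genes, in Treg on the horizontal and in Tcon on the vertical axis, each the mean of 2 pairs. Red points are genes higher and blue points genes lower in gut Treg in both pairs, and the dashed line marks equal differences. Hspa1a and Il10 lie near the line, Itgae, Ctla4 and Rgs1 lie above it, and Aplf, Plekha5 and Trappc8 are higher in gut Treg and lower in gut Tcon.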

How the data were processed

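RNA of 8 pools of sorted CD4 T cells was read on 8 Illumina mouse arrays, after labelling as biotinylated cRNA per the labels' protocols. The deposited table holds intensity values that are not normalised, on a linear scale, and beside each a detection p-value of the probe, per the file headers. A second deposited table holds log2 values that the authors normalised by a method not given in the sources used here; on each array its order of probes equals that of the intensities. Of 25697 probes, 23978 had 1 gene symbol in the platform annotation, 0 had several and 1719 had none, and 23962 were matched by gene ID to RefSeq.

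From the intensities, background was corrected by normexp using the detection p-values with an offset of 16, arrays were quantile normalised and log2 was taken (limma 3.58.1, R 4.3.3). Probes were kept where 2 or more of the 8 arrays had a detection p under 0.05, which left 10021 named probes. Of a gene's kept probes the one with the highest mean was used, which gave 7916 genes. The limma fit on 8 arrays had the 4 pairs of a cell type and genotype as blocks and a tissue term each for Treg and Tcon, with Benjamini-Hochberg adjustment over all genes. The standard errors (SE) given are those of this fit, which pools the spread of the Treg and Tcon pairs. The genotype label pairs the arrays, and the genotype difference in gut Treg correlated with that in spleen Treg at 0.126 across genes. The limma fit was tested on simulated normalised values with known differences, while the steps before it and the 2-fold rule were not.

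The text names the 15 genes furthest above and the 15 furthest below spleen by the smaller pair difference, then up to 4 genes of each list and 16 Treg and homing genes, some of which are not reported here. Predicted transcripts and receptor segments were skipped. Genes named outside this rule were chosen after their values were seen: Dusp1, Egr2, Egr3, Esam, Gpr83, H2-Ab1, Icos, Il4, Irf4, Junb, Nfkbiz, Prdm1, Robo4, Stab1, Vwf and Zfp36, and the 3 genes that went opposite ways in Treg and Tcon. The members and all lists were chosen with earlier results of these data known. Alternatives were tried for background correction, normalisation, offset, detection filter, probe choice, block and left-out arrays. The number of arrays limits the precision, and nothing in the p-values covers more than the spread of these pools, which may be technical.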

Additional observations from a re-analysis of the deposited data

Results flagged for a closer look

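Of the 612 genes, 3 differed between gut and spleen by 2-fold or more in opposite directions in Treg and in Tcon, in both pairs of each. Aplf, a factor of DNA end joining, read 9.47 and 8.74 in K14 and control gut Treg and was below background in spleen Treg, while in Tcon it was below background in gut and read 8.09 and 10.14 in K14 and control spleen. Its tissue difference in Treg exceeded that in Tcon by 6.61 ± 0.71 on the log2 scale (SE, limma adjusted p = 0.284). Plekha5, a protein with a pleckstrin homology domain, read 7.52 and 8.77 in K14 and control gut Treg and was below background in spleen Treg, and the tissue differences of the cell types differed by 4.62 ± 0.45 (SE, limma adjusted p = 0.284). Trappc8, a subunit of a vesicle tethering complex, was higher in gut Treg by 3.68 in the K14 pair and 1.52 in the control pair and differed in Tcon by -1.64 and -1.66 in the same pairs. Its tissue differences in Treg and Tcon differed by 4.25 ± 0.81 (SE, limma adjusted p = 0.488). The test of the difference between cell types did not pass for any of the 3.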

How the results depend on the processing

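With 1 array for each tissue, cell type and genotype, every difference rests on 2 pairs of pooled RNA, and the cause of each dependence below was not tested. Without the replicate block, that is without pairing by genotype label, limma called 88 genes, against 0 with it, and under each other alternative it called 0, with the smallest adjusted p between 0.0509 and 0.52. The test of Treg against Tcon called 0 genes under every alternative run. The number of genes past 2-fold in both pairs, 612, was 347 without background correction and 268 with the authors' deposited log2 values, of which 267 were among the 612. It was 168 at 4-fold, and with 1 pair left out it ranged from 1374 (without the K14 pair) to 1888 (without the control pair), as the rule then asks for 1 pair only. Median centring gave 604 genes, 556 of them shared, an offset of 50 gave 512, no detection filter 611, detection at p under 0.01 580, and the mean over a gene's probes 598. The differences of 157 genes kept their sign without background correction, under median centring and with the authors' values. With the authors' values the list medians were smaller, at 1.58 for the early response, 0.95 for effector Treg, 0.92 for endothelial and 0.63 for basement membrane genes. Without the detection filter they were 0.25 for gut homing, 0.42 for tissue Treg, 0.45 for epithelial, 0.27 for Treg core and -0.27 for cell cycle genes, and with the authors' values -0.42 for recirculation. Single genes that turned were Rgs3, at -0.0111 with the mean over probes, and Ccr7 and Klf2, at 0.0743 and 0.0287 without the K14 pair. Signals near background and near the top of the scale limit fold sizes, and the lower bounds depend on the detection limit.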
